A study of Mus musculus with 5 samples.

Results

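The 39 genes described here belong to DNA replication and cell division, and were taken by symbol from the 17923 genes listed in at least 1 of 5 RNA-seq libraries of mouse thyroid tumor cells. By known roles, 18 were assigned to steps before or during DNA synthesis (called G1/S genes here) and 21 to the G2 phase and mitosis (G2/M genes). Each gene was put in 1 group only, also where its role may span both. Each of the 39 was listed and had enough reads for testing. The libraries came from cell lines grown from BrafV600E-driven thyroid tumors, either with Ctnnb1 (the β-catenin gene) intact, which gives the 2 BVE-Ctnnb1wt libraries, or with Ctnnb1 labelled as deleted, which gives the 3 BVE-Ctnnb1null libraries. The study compared the 2 genotypes.

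Both wt libraries came from the BVE line at passage 20. Cells of wt replicate 1 are labelled as grown without, and those of wt replicate 2 as grown with, the pituitary hormone TSH (thyrotropin). The null libraries came from BVECTN_4 at passage 8 without TSH (replicate 1), BVECTN_4A at passage 11 (replicate 2) and BVECTN_5 at passage 7 (replicate 3). TSH is not stated in the labels of null replicates 2 and 3. The general culture description gives 4 mU/mL bovine TSH for all cells, which goes against the labels of wt replicate 1 and null replicate 1, and it puts the lines at about 25 passages (wt) and 20 passages (null). The wt group therefore stands for 1 cell line, and genotype, line, passage and TSH cannot be told apart between the groups. The study calls its libraries biological replicates, but the 2 wt libraries are 1 line under differently labelled conditions, so p-values measure only the spread between these libraries. The total estimated count was 30432737 in wt replicate 1 and 30713079 in wt replicate 2, and was 29929677, 29360002 and 29415980 in null replicates 1, 2 and 3. At this depth a gene with no count could still have had up to 3, or 0.10 CPM (a gene's count relative to all counts of its library), a bound on counting error alone.

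A cell that commits to division first loads the MCM helicase onto replication origins with Cdc6 and Cdt1, then copies its DNA with the sliding clamp Pcna and nucleotides supplied by ribonucleotide reductase. E2F factors drive transcription of many of these early genes. Genes of mitosis come on later, through the MuvB complex with B-Myb and Foxm1, and in resting cells the related DREAM complex keeps both waves low. In the normal thyroid, TSH acts through its receptor Tshr and is known as a growth stimulus of follicular cells.

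Ctnnb1 RNA was present in every library. Its level was 251.1 and 356.4 CPM in wt replicates 1 and 2, and 418.2, 572.2 and 343.8 CPM in null replicates 1, 2 and 3. CPM values here and below carry TMM scaling, which corrects library totals for differences in composition. The libraries labelled null did not have less Ctnnb1 RNA than the wt libraries, with a log2 fold change of 0.55 (SE 0.44, edgeR quasi-likelihood test, adjusted p = 0.517). The amount of this RNA thus does not show the labelled deletion, and "null" below means the libraries labelled BVE-Ctnnb1null. Summed over a gene, these values do not separate deleted exons from the rest of the transcript.

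The labelled cell type, thyroid epithelial cells, was checked against its markers. The 9 follicular markers summed to 15.3 and 20.6 FPKM (reads scaled to transcript length and library total) in wt replicates 1 and 2, and to 35.02, 68.5 and 4.84 FPKM in null replicates 1, 2 and 3. Nkx2-1, a thyroid transcription factor, was the most abundant in both wt libraries and null replicate 2, at 9.21, 15.0 and 34.8 FPKM, and Pax8 in null replicates 1 and 3, at 18.2 and 2.56 FPKM. Tshr, the TSH receptor, had 5 and 3 counts in wt replicates 1 and 2, and 1, 14 and 2 counts in the null replicates. Receptor RNA was therefore near the limit of detection in the line grown with and without TSH. The 8 epithelial markers summed to 1105 and 1782 FPKM in the wt libraries and to 13941, 706 and 1444 FPKM in null replicates 1, 2 and 3, where Krt8 led in both wt libraries, Krt7 in null replicates 1 and 3, and Krt18 in null replicate 2, in which Epcam and Cdh1 were not listed. Of the 9 fibroblast markers, 5 and 5 reached 1 FPKM in the wt libraries, and 1, 5 and 8 did in the null libraries. They summed to 290.0 and 255.0 FPKM in the wt libraries and to 1.7, 148.1 and 1413 FPKM in the null libraries. Col1a1 was the most abundant of the 9 in every library, and Dcn, Postn and Thy1 were high in null replicate 3. The null lines thus differed widely from each other in cell type markers, and the part of this in the results below was not tested. Endothelial markers reached at most 0.66 FPKM in sum, Ptprc, Cd3e and Adgre1 were not listed in any library, and the immune sum (6.09 and 14.3 FPKM in the wt, 59.9, 1.03 and 40.3 FPKM in the null libraries) was nearly all Cd68.

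Promoters of these genes carry short letter patterns that are known landmarks of the 2 waves. The CHR (TTTGAA or TTCGAA) is the element of the MuvB complexes, E2F sites were searched as TTCGCGC and its variants with TTGGCGC or with TTCCCGC letters, and the CCAAT box as CCAAT. The RefSeq promoter table (build GRCm38.p6, 250 bases before to 50 after each start site) held 31 of the 39 genes by symbol, with 33 windows. Below are 170 bases, from 150 before to 20 after the start site, for 4 G2/M genes and then 4 G1/S genes, chosen after the matches were seen because they show the patterns of each wave. Capitals mark CHR, E2F and CCAAT letters on either strand, so the reverse complement of each pattern is marked too, and neighbouring matches can overlap.
Ccnb2 (chr9:70421535-70421704, minus strand): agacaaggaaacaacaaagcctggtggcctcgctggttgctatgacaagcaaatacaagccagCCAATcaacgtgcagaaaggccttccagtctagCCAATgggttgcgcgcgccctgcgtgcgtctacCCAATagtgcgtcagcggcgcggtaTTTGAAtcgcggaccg
Cdk1 (chr10:69352893-69353062, minus strand): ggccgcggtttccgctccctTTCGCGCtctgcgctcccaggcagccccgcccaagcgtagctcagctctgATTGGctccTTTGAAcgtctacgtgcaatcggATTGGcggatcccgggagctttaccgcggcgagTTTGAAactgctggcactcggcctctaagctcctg
Top2a (chr11:99024170-99024339, minus strand): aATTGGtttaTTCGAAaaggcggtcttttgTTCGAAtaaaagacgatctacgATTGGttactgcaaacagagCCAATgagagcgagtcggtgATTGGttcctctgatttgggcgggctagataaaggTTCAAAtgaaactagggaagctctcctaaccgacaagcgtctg
Kif11 (chr19:37376232-37376401, plus strand): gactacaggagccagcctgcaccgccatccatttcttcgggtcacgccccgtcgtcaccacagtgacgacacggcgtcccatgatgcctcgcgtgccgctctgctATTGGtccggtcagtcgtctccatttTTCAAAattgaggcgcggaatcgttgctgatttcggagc
Mcm6 (chr1:128359686-128359855, minus strand): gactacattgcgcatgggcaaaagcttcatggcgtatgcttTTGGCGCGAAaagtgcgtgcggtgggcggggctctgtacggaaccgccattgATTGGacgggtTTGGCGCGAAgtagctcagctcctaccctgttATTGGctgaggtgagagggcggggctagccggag
Cdc6 (chr11:98908001-98908170, plus strand): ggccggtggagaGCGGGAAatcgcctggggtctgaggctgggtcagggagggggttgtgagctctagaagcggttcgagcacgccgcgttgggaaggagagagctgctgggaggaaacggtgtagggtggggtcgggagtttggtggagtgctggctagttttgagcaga
Rrm1 (chr7:102441545-102441714, plus strand): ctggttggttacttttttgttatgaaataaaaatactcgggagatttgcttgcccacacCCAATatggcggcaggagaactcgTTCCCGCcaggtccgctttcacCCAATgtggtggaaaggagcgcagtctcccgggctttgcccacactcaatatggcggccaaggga
Cdk2 (chr10:128705032-128705201, minus strand): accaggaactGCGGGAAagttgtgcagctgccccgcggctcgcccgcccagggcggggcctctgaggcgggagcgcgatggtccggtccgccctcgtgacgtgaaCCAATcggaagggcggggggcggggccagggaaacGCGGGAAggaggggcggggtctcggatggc

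CHR letters were in the windows of 11 of 16 G2/M genes and 3 of 15 G1/S genes, and in 19.1% of all 32544 promoter windows. E2F letters showed the opposite order, in 3 of 16 G2/M and 9 of 15 G1/S genes, against 8.12% of all windows. CCAAT letters were in 13 of 16 and 10 of 15 genes, against 37.4% of all windows. At least 1 CHR or E2F match was found for 22 of 31 genes, against 26.2% of all windows. Both kinds stood in 1 window for 3 genes (Mcm7, Cdk1 and Mki67), against 0.97% of all windows, and E2f2 had E2F letters in 1 of its 2 windows and CHR letters in the other. A match is a description of letters, not a binding site.

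**Figure D1:**
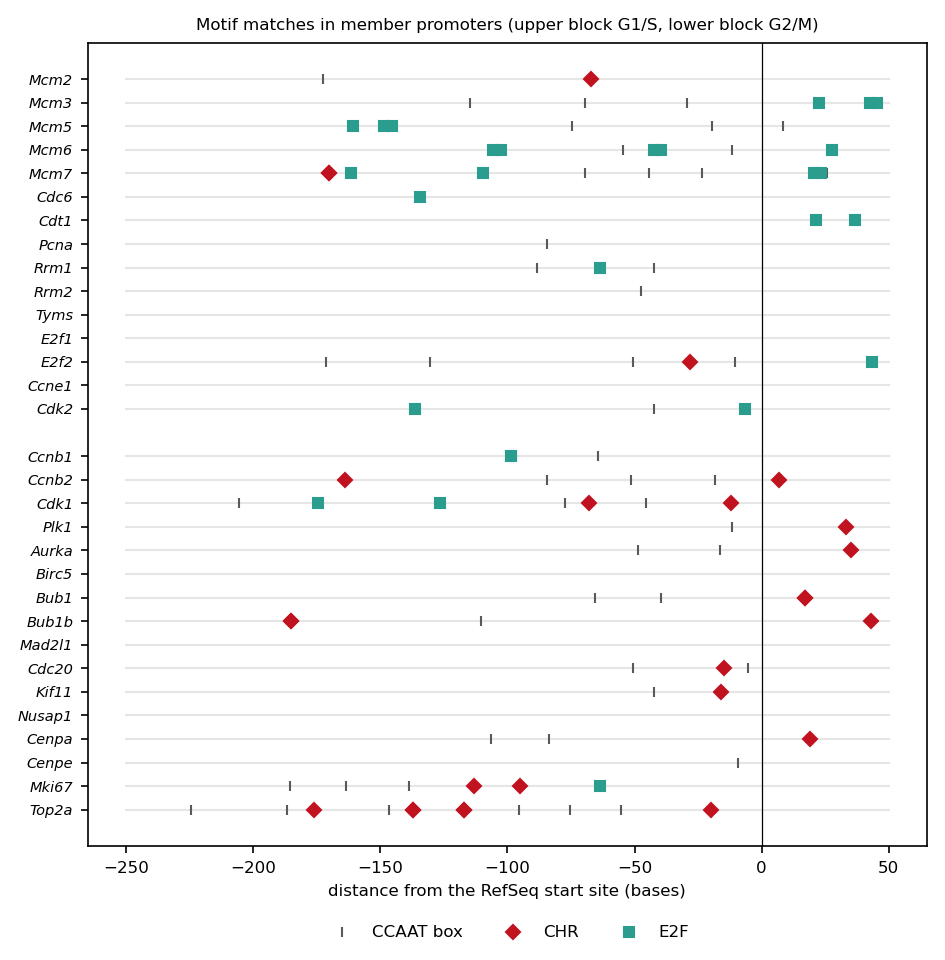
Positions of motif letters in the promoter windows of 31 genes. The x axis is the distance from the RefSeq start site in bases, each line is a gene (15 G1/S genes above, 16 G2/M genes below, with both windows of a gene that has 2 start sites drawn on 1 line), and symbols mark CHR, E2F and CCAAT matches on either strand. CHR matches lie mostly in the lower block, in 11 of 16 genes, and E2F matches mostly in the upper block, in 9 of 15 genes.

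Across libraries, the 39 genes were at their lowest in wt replicate 1 and at their highest in null replicate 2. Their FPKM summed to 367.1 in wt replicate 1 and 904.2 in wt replicate 2, and to 780.4, 1709 and 1229 in null replicates 1, 2 and 3. As a share of all counts they took 0.0901% and 0.225% of the wt libraries and 0.202%, 0.445% and 0.309% of the null libraries. Wt replicate 1 held the lowest CPM of the 5 libraries for 33 of the 39 genes, or 84.6%, against 16.3% of the 13240 genes tested. The 6 exceptions were G1/S genes: Cdt1 and Cdk2 were lowest in wt replicate 2, Tyms and Ccne2 in null replicate 1, and Mcm7 and E2f2 in null replicate 3. Null replicate 2 was highest for 21 genes (53.8%, against 22.5% of all genes) and wt replicate 2 for 10 (25.6%, against 16.2%). On FPKM the first 2 of these counts were 34 and 29 genes (18.9% and 29.2% of all genes), but wt replicate 2 was highest for 0 genes on that scale (6.03% of all genes). In bulk RNA, fewer dividing cells and less of these RNAs per cell cannot be told apart.

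**Figure D2:**
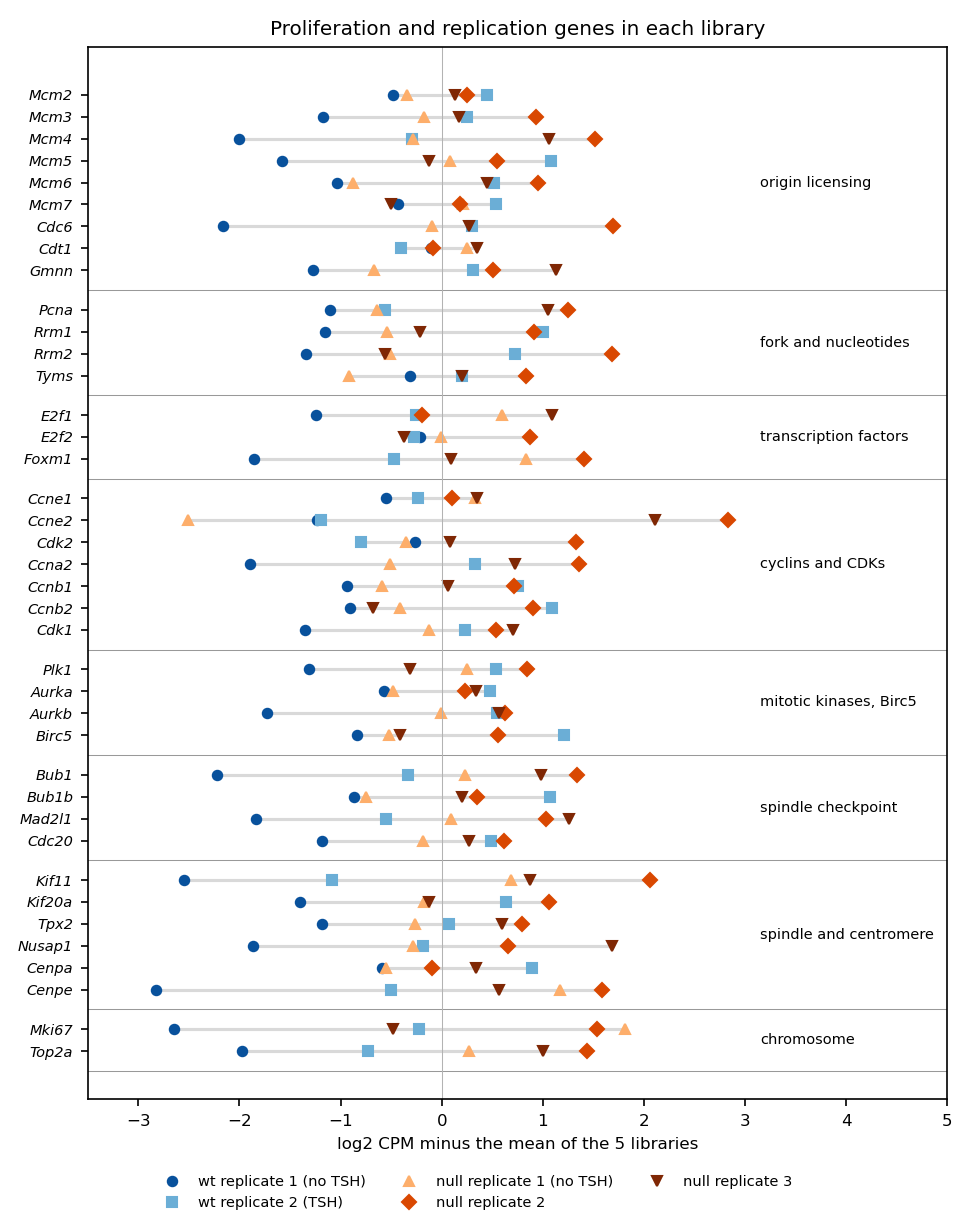
Level of each of the 39 genes in each library. The x axis is log2 CPM (TMM-scaled) minus the mean of the 5 libraries, rows are genes grouped by role, and each symbol is 1 library. The dark blue circle of wt replicate 1 is the leftmost point in 33 of 39 rows, and in every row of the mitotic kinases, the checkpoint, the spindle and the chromosome genes.

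The wt library labelled with TSH had more RNA of nearly all of these genes than the library of the same line labelled without it. The culture description, which gives TSH for all cells, leaves this label uncertain, and "with" and "without" TSH here follow the labels. The ratio of wt replicate 2 to wt replicate 1 was at least 2-fold for 29 of 39 genes, against 8.51% of all genes tested, and at least 2-fold lower for 0, against 9.71%. Its median was 1.59 on the log2 scale (3.00-fold), while the median over all genes was -0.01. All 21 G2/M genes were at least 2-fold higher, from 1.05 for Aurka to 2.40 for Mki67, with a median of 1.69. Of the 18 G1/S genes, 8 passed this fold, with a median of 0.98 and a range from -0.53 for Cdk2 to 2.66 for Mcm5. Each condition is 1 library, so this difference has no replicate check and no p. On FPKM, which keeps the library total as the scale, 28 genes passed 2-fold (6.69% of all genes), among them 20 of the 21 G2/M genes. With 0.1 added to each FPKM, which draws the ratios of low genes such as Kif11 and Cenpe toward 0 on the log2 scale, 26 passed (3.88% of all genes), 18 of them G2/M genes. The libraries share line and passage in their labels, and other differences in handling cannot be told apart from TSH.

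**Figure D3:**
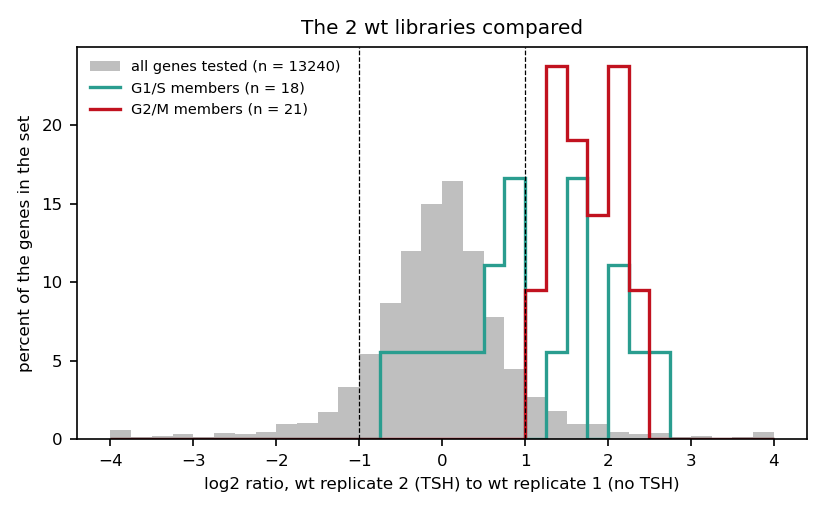
Log2 ratio of CPM between the wt library with TSH and the wt library without, in bins of 0.25, as percent of the genes in each set. Grey is all 13240 genes tested (values past the axis are put in the end bins), green the 18 G1/S genes and red the 21 G2/M genes, and dashed lines mark 2-fold. The red outline lies wholly to the right of the 2-fold line, while the green one runs from -0.53 to 2.66.

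Among the null libraries the 39 genes were mostly lowest in replicate 1. Null replicate 1, the other library labelled as grown without TSH, was the lowest of the 3 for 27 of the 39 genes (69.2%, against 38.1% of all genes), and null replicate 2 was the highest for 28 (71.8%, against 32.0%). The null libraries carry different line names, so line and TSH cannot be told apart.

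Between the groups, 0 of 39 genes were significantly higher and 0 lower in the null libraries at an adjusted p under 0.05 (edgeR quasi-likelihood test over 13240 genes, Benjamini-Hochberg adjustment). The background was 0.0% in each direction, because edgeR called 0 genes over the whole table. At an unadjusted p under 0.05, edgeR gave 6 higher (Kif11, Top2a, Mad2l1, Foxm1, Bub1 and Mcm4) and 0 lower, against 12.4% and 6.07% of all genes. DESeq2 called 2 of them higher, Kif11 (log2 fold change 2.89, adjusted p = 0.00587) and Top2a (2.11, adjusted p = 0.0176), and 0 lower, against 8.41% and 3.68% of all genes. With the length and GC correction below, the edgeR fold changes of Kif11 and Top2a were 1.78 and 1.01. For Kif11 the adjusted p ran from 0.00587 to 0.833 and for Top2a from 0.0176 to 0.833 over all settings tried with edgeR, DESeq2 and limma. The log2 fold change was above 0 for 31 of 39 genes, against 7845 of 13240 over all genes. Its median was 0.65 beside 0.29 over all genes, and it ran from -0.56 for Birc5 to 3.16 for Ccne2.

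The sign of the smaller values depended on the scaling. With library totals alone in place of TMM, edgeR gave 39 of 39 values above 0, but the median over all genes also moved to 0.87, beside 1.26 for the 39 genes. For 10 genes all 3 null libraries were above both wt libraries (Mcm4, Cdt1, E2f1, Foxm1, Ccne1, Bub1, Mad2l1, Kif11, Cenpe and Top2a), or 25.6%, against 22.6% of all genes. For 0 genes were all 3 below, against 17.3% of all genes.

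Leaving out 1 or the other wt library moved the median in opposite directions. Without wt replicate 1, the median of the 39 genes was 0.18 (0.36 over all genes), 23 were above 0, and 11 were wholly above and 10 wholly below the remaining wt library, against 30.3% and 23.7% of all genes. Without wt replicate 2, the median was 1.77 (0.33 over all genes), 39 were above 0, and 34 were wholly above, against 28.4% of all genes. Fold changes were lower for 36 of 39 genes without wt replicate 1 and higher for 36 of 39 without wt replicate 2. These counts follow from the ratio of the wt libraries, which was above 0 for 36 of 39 genes, and are no separate result. Over each library left out in turn, fold changes ran from 2.33 to 3.89 for Kif11, from 1.71 to 2.95 for Top2a and from 1.47 to 3.88 for Mki67. With a lone wt library, edgeR takes its spread from the null group.

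The genes of origin licensing had a median log2 fold change of 0.43 over 9 members. Mcm2, a subunit of the replicative helicase, was at 110.7 and 210.5 CPM in wt replicates 1 and 2, and at 121.4, 183.5 and 169.1 CPM in null replicates 1, 2 and 3. All of its null values fell between the 2 wt values on CPM, and the fold change was -0.02 (SE 0.47, edgeR, adjusted p = 0.984). On FPKM, Mcm2 was at 65.6 and 60.0 in null replicates 2 and 3, above 44.9 in wt replicate 2. Mcm4, another subunit, was at 8.24 and 27.1 CPM in the wt and 27.2, 94.3 and 69.3 CPM in the null libraries. On CPM, null replicate 1 was level with the wt library with TSH, and null replicates 2 and 3 stood above. On FPKM null replicate 1 was also above, at 8.14 against 5.44. The fold change of Mcm4 was 1.85 (SE 0.77, edgeR, adjusted p = 0.27). The 6 MCM subunits are loaded as 1 ring, yet the log2 ratio of wt replicate 2 to wt replicate 1 ran from 0.93 for Mcm2 to 2.66 for Mcm5, and the null to wt fold change from -0.13 for Mcm7 to 1.85 for Mcm4. Cdc6, the loading factor, was at 2.30 and 12.7 CPM in the wt and 9.68, 33.5 and 12.4 CPM in the null libraries. Cdt1, its partner, went the other way between the wt libraries, with 42.6 CPM without and 34.9 CPM with TSH, while Gmnn (geminin), the inhibitor of Cdt1, was at 5.62 and 16.9 CPM. In the null libraries Cdt1 stood at 54.6, 43.4 and 58.5 CPM, above both wt values but by little in null replicate 2. On FPKM, Cdt1 was at 23.5 in null replicate 2 against 15.8 in wt replicate 1.

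Of the null libraries, replicate 2 was the highest for all 4 genes of the replication fork and nucleotide supply, and the highest null value was from 2.74-fold (Rrm1) to 4.75-fold (Rrm2) the lowest. Pcna was at 27.0 and 39.5 CPM in the wt libraries and at 37.3, 138.0 and 120.4 CPM in null replicates 1, 2 and 3. On CPM, null replicate 1 lay between the wt values and the other null libraries far above them, with a fold change of 1.57 (SE 0.66, edgeR, adjusted p = 0.271). On FPKM null replicate 1 was above both wt values, at 32.4 against 23.1 in wt replicate 2. Rrm2, the small subunit of ribonucleotide reductase, was at 16.6 and 69.8 CPM in the wt and 29.6, 135.5 and 28.5 CPM in the null libraries. Only null replicate 2 exceeded the wt library with TSH, the fold change was 0.58 (SE 0.93, edgeR, adjusted p = 0.76), and it was -0.67 without null replicate 2 and -0.11 without wt replicate 1. Rrm1, the large subunit, was at 102.0 and 452.6 CPM in the wt and 155.9, 426.8 and 195.8 CPM in the null libraries. Every null value of Rrm1 lay between the wt values on CPM, but on FPKM null replicate 2 (128.8) was above wt replicate 2 (81.6). Tyms (thymidylate synthase) was at 34.0 and 48.6 CPM in the wt and 22.5, 75.5 and 48.8 CPM in the null libraries.

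Among the transcription factors, Foxm1, the activator of mitotic genes, was at 6.68 and 17.4 CPM in the wt libraries and at 43.0, 63.9 and 25.8 CPM in null replicates 1, 2 and 3. Every null value was above both wt values, and the fold change was 1.88 (SE 0.67, edgeR, adjusted p = 0.23). E2f1 was at 11.5 and 22.9 CPM in the wt and 41.3, 23.9 and 58.0 CPM in the null libraries. On CPM the null values were again above, though null replicate 2 by only 0.06 on the log2 scale over wt replicate 2. On FPKM, null replicate 2 was at 11.8 against 6.74 in wt replicate 2. The fold change of E2f1 was 1.26 (SE 0.60, edgeR, adjusted p = 0.308). E2f2 was low throughout, at 3.12 and 3.01 CPM in the wt and 3.61, 6.67 and 2.80 CPM in the null libraries. Only null replicate 2 stood apart, and without it the fold change went from 0.51 to -0.03.

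The E cyclins and Cdk2 had smaller or opposite differences between the wt libraries, with log2 ratios of 0.31 for Ccne1, 0.04 for Ccne2 and -0.53 for Cdk2. Ccne1, the G1/S cyclin E1, was at 18.2 and 22.6 CPM in the wt and 33.3, 28.6 and 33.9 CPM in the null libraries, the tightest null range of the genes shown. The groups did not overlap, with a fold change of 0.65 (SE 0.45, edgeR, adjusted p = 0.453). Ccne2, its paralog, was at 0.82 and 0.84 CPM in the wt and 0.34, 13.7 and 8.34 CPM in the null libraries. With 21 and 19 counts in the wt and 11 in null replicate 1, this gene was close to silent in 3 libraries and present in the other 2, and its fold change of 3.16 (SE 1.45, edgeR, adjusted p = 0.296) averages over null lines that differ from each other by far more than the wt libraries do. Cdk2, the kinase of both, was at 12.4 and 8.55 CPM in the wt and 11.6, 37.3 and 15.7 CPM in the null libraries.

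The mitotic cyclins differed more between the wt libraries than between the group means. Ccnb1 (cyclin B1) was at 34.6 and 111.7 CPM in the wt libraries and at 43.8, 108.6 and 69.1 CPM in null replicates 1, 2 and 3. On CPM all null values fell between the 2 wt values, with a fold change of 0.01 (SE 0.65, edgeR, adjusted p = 0.994). On FPKM, null replicates 2 and 3 were above both wt values, at 56.9 and 35.99, and null replicate 1 stayed between them. The fold change of Ccnb1 was 0.66 with library totals alone (edgeR) and 0.73 with limma on FPKM with 0.1 added. Cdk1, its kinase, was at 29.9 and 89.8 CPM in the wt and 69.9, 111.1 and 124.5 CPM in the null libraries. Its fold change was 0.77 (SE 0.60, edgeR, adjusted p = 0.507), with null replicate 1 between the wt values on CPM but above both on FPKM. It went to 0.18 when wt replicate 1 was left out and to 1.77 when wt replicate 2 was. Ccnb2 and Ccna2 (cyclins B2 and A2) had wt ratios of 2.00 and 2.22 on the log2 scale and fold changes of -0.30 and 1.11.

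Of the mitotic kinases and Birc5, Plk1, which triggers mitotic entry, was at 31.6 and 113.4 CPM in the wt and 93.0, 140.4 and 62.8 CPM in the null libraries. On CPM, null replicates 1 and 3 were below and null replicate 2 above the wt library with TSH. On FPKM null replicate 1 was also above it, at 45.5 against 37.4. The fold change of Plk1 was 0.45 (SE 0.66, edgeR, adjusted p = 0.737), or -0.20 without wt replicate 1. Aurora kinases A and B (Aurka, Aurkb) had wt ratios of 1.05 and 2.27. Birc5 (survivin), the partner of Aurkb in the chromosomal passenger complex, had a wt ratio of 2.04 and the lowest fold change of the 39 genes, -0.56. With the length and GC correction below, its fold change was 0.41.

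In the spindle checkpoint, Bub1 was at 1.84 and 6.78 CPM in the wt libraries and at 10.02, 21.6 and 16.9 CPM in null replicates 1, 2 and 3. Mad2l1, which holds back the anaphase activator Cdc20, was at 5.78 and 14.0 CPM in the wt and 22.0, 42.1 and 49.3 CPM in the null libraries. Both were higher in every null library than in either wt library, with fold changes of 1.91 (SE 0.78, edgeR, adjusted p = 0.262) and 1.93 (SE 0.65, edgeR, adjusted p = 0.219). With the length and GC correction below, Bub1 had 0.79 and Mad2l1 1.74. Bub1b (BubR1), which acts beside them at the kinetochore, and Cdc20 itself overlapped between groups, with fold changes of -0.40 and 0.39. Between the wt libraries these 4 checkpoint genes had log2 ratios from 1.28 to 1.94.

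The spindle, centromere and chromosome genes held the lowest p of the set. Kif11 (Eg5), the motor that pushes spindle poles apart, was at 1.17 and 3.23 CPM in the wt libraries and at 11, 28.6 and 12.6 CPM in null replicates 1, 2 and 3. Its fold change was 2.98 (SE 0.82, edgeR, adjusted p = 0.192), from 30 and 73 counts in the wt. Top2a, the topoisomerase that untangles sister DNA, was at 17.2 and 40.5 CPM in the wt and 81.1, 182.0 and 134.8 CPM in the null libraries, with a fold change of 2.20 (SE 0.62, edgeR, adjusted p = 0.192). Neither gene overlapped between groups. With the length and GC correction below, Kif11 had 1.78 and Top2a 1.01. Mki67, the Ki-67 antigen of dividing cells, was at 1.21 and 6.47 CPM in the wt and 26.5, 21.9 and 5.43 CPM in the null libraries. It was the only one of the 39 genes highest in null replicate 1, null replicate 3 fell below the wt library with TSH, and the fold change was 2.22 (SE 1.02, edgeR, adjusted p = 0.295). With the length and GC correction it was 0.84. On FPKM, where null replicate 3 stood above wt replicate 2, Mki67 was at 0.10 and 0.46 in the wt and 2.79, 2.60 and 0.64 in the null libraries. Cenpe, a kinetochore motor, had 5 and 22 counts in the wt libraries, too few for a firm ratio. Cenpa, the centromeric histone, had a fold change of -0.39, and Tpx2, Nusap1 and Kif20a, which organise spindle microtubules and cytokinesis, had 0.87, 1.69 and 0.42.

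Set against each wt library by itself, the null libraries gave different readings. Against wt replicate 1, 17, 33 and 24 genes were at least 2-fold higher in null replicates 1, 2 and 3 (29.1%, 27.3% and 28.9% of all genes), and 1, 0 and 0 were lower (22.1%, 22.1% and 20.2%). The medians were 0.91, 2.06 and 1.46 on the log2 scale. Of the null libraries, only replicate 1 shares the label without TSH with wt replicate 1, and it still differs in genotype, line and passage. Against wt replicate 2, 5, 14 and 10 genes were higher (29.7%, 29.9% and 31.3% of all genes) and 11, 0 and 6 lower (21.4%, 24.2% and 21.1%), with medians of -0.39, 0.43 and 0.01. These comparisons share libraries and have no test. Against the mean of both, 8, 20 and 15 genes were higher (28.0%, 27.3% and 28.6% of all genes) and 3, 0 and 1 lower (21.9%, 23.3% and 20.8%), with medians of 0.15, 1.00 and 0.58, which have an SD of 0.43 over the 3 null lines.

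**Figure D4:**
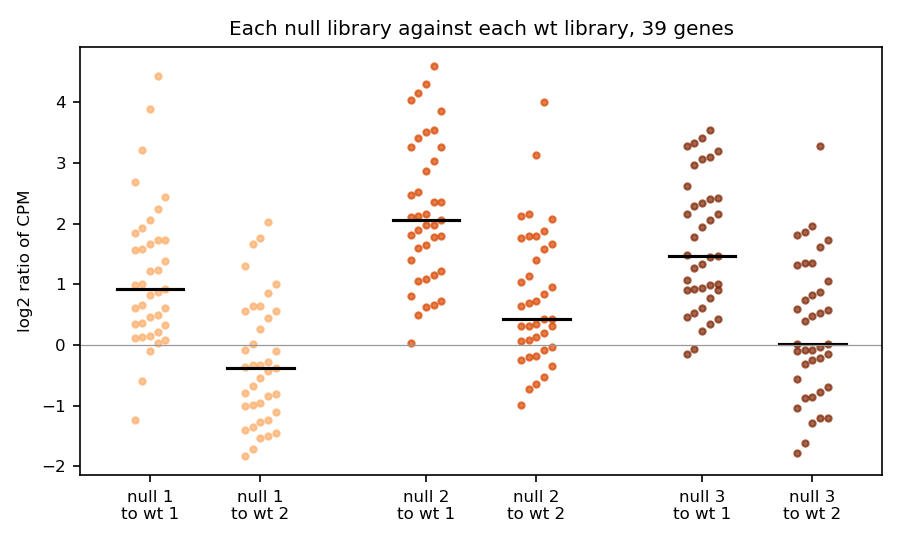
Log2 ratio of CPM of each null library to each wt library for the 39 genes. Each point is a gene, spread sideways only for view, and the bar is the median of the 39. The medians are 0.91, 2.06 and 1.46 against wt replicate 1 (no TSH), and -0.39, 0.43 and 0.01 against wt replicate 2 (TSH).

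The balance of the 2 waves was also lowest in wt replicate 1. The summed FPKM of the G2/M genes divided by that of the G1/S genes was 0.835 there and 1.16 in wt replicate 2, and was 0.949, 0.933 and 0.984 in null replicates 1, 2 and 3. Wt replicate 1 was the lowest in 4 of 4 ways of forming this ratio, while the order of the other libraries changed with the scale.

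Fold changes between the groups depended on transcript length and base composition over all genes, and several of the 39 lie at the ends of these scales. From the shortest to the longest sixth of all genes the median null to wt fold change went from -0.47 to 1.25, and over the sixths of GC content it went from 0.98 in the lowest to -0.12 in the fifth and 0.03 in the highest. Against the wt mean, the length trend had the same direction in each null library, from -0.65 to 1.02, -0.89 to 1.29 and -0.50 to 0.93 in replicates 1, 2 and 3. The GC trend did not: from the lowest to the highest sixth it went from 1.16 to -0.77 in null replicate 2 and from 1.07 to -0.53 in null replicate 3, but from 0.07 to 0.51 in null replicate 1. Top2a (5217 bases, 43.4% GC) lies in the longest sixth and in that of the lowest GC, where all genes were highest. Mki67 (10098 bases, 46.6% GC) lies in the longest sixth but the second of GC, and Kif11 (4850 bases, 42.2% GC) in the lowest of GC but the fifth of length, where the median of all genes was 0.73. After a correction of each library for length and GC, chosen after seeing the data, fold changes were lower for 20 and higher for 19 of the 39 genes. They went down from 2.98 to 1.78 for Kif11, from 2.20 to 1.01 for Top2a, from 2.22 to 0.84 for Mki67, from 1.91 to 0.79 for Bub1 and from 3.16 to 2.02 for Ccne2. They went up from 0.65 to 1.24 for Ccne1, from 0.45 to 1.10 for Plk1, from 1.26 to 1.74 for E2f1, from 0.39 to 1.23 for Cdc20 and from -0.56 to 0.41 for Birc5. The median of the 39 genes was 0.84 with this correction (0.27 over all genes), 34 were above 0, and edgeR called 0 of them and 0 of all genes. Between the wt libraries the dependence was small, from 0.13 to -0.12 over length and from -0.23 to 0.09 over GC, and 28 genes were still at least 2-fold higher with TSH (8.29% of all genes).

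**Figure D5:**
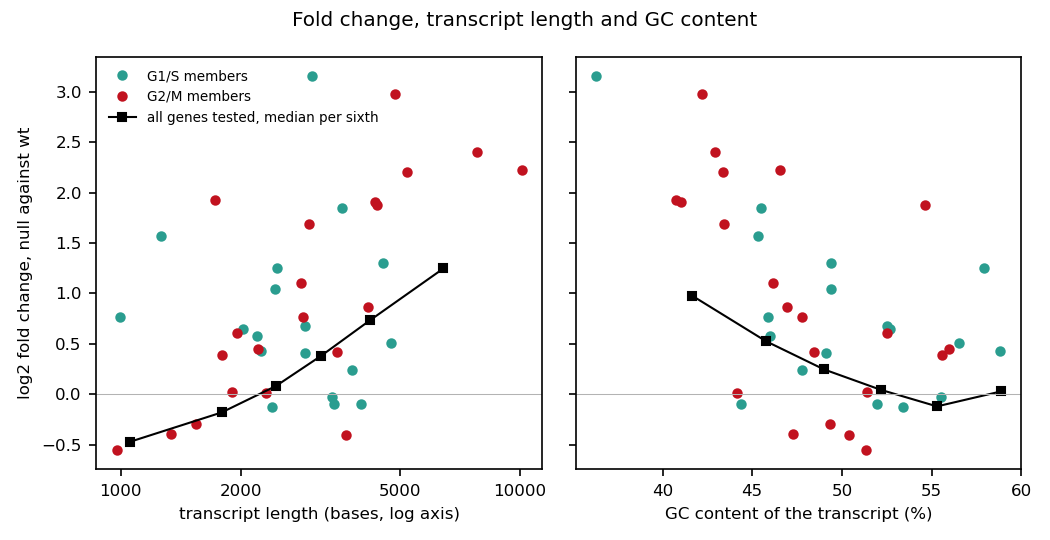
Null to wt log2 fold change (edgeR) of the 39 genes against transcript length (left, bases, log axis) and GC content (right, percent). Green points are G1/S genes, red points G2/M genes, and black squares are medians of all genes tested in sixths. The black line rises from -0.47 to 1.25 with length and, with GC content, falls from 0.98 to -0.12 in the fifth sixth and ends at 0.03, and Ccne2 (3.16) and Kif11 (2.98) are the highest points.

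Other mitosis and replication genes, from lists that leave out the 39, also differed between the wt libraries, mitosis genes in the larger share. Of 64 other mitosis genes, 44 were at least 2-fold higher and 0 lower with TSH, and of 44 other replication genes 21 were higher and 2 lower, against 8.51% and 9.71% of all genes. Of 17 other E2F and DREAM genes, whose products regulate rather than carry out the cycle, 2 were higher and 1 lower. The median log2 ratio of these 17 was 0.02, near the -0.01 of all genes. Between the groups edgeR called 0 of each list, and the numbers with a fold change above 0 were 55 of 64 (median 1.06), 29 of 44 (median 0.24) and 15 of 17 (median 0.99), beside 7845 of 13240 over all genes (median 0.29). At an unadjusted p under 0.05, edgeR gave 16, 0 and 6 higher and 0, 0 and 0 lower, against 12.4% and 6.07% of all genes. In the replication list, Tk1 (thymidine kinase) and Pold2 (a polymerase delta subunit) had the lowest fold changes, -1.02 and -0.85, and Orc4 (an origin recognition subunit) and Pola1 (polymerase alpha) the highest, 1.90 and 1.64. In the mitosis list, Spc24 (a kinetochore subunit) and Kif22 (a chromosome motor) had -1.22 and -0.91, and Stil (a centriole factor) had 3.41. Stil had 5 and 19 counts in the wt libraries, too few for a firm ratio. Knl1, the kinetochore scaffold, was not listed in either wt library and was taken as 0 counts there, against 21, 126 and 51 counts in the null libraries. Its mean null CPM was at least 14.9-fold higher than a floor of 3 counts per wt library (edgeR, adjusted p = 0.186). Most of that mean came from null replicate 2, and the bound would be lower without it. Knl1 is also long, at 6525 bases, and poor in GC, at 38.0%. In the E2F and DREAM list, Lin37 and E2f6 had -0.22 and -0.03, and Lin54 (a MuvB subunit) and E2f8 (a repressor E2F) had 3.00 and 3.03.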

How the data were processed

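The authors isolated total RNA, prepared TruSeq libraries and sequenced them on an Illumina HiSeq platform. The aligner, counter and genome build are not given in the sources used here. They deposited, per RefSeq transcript and library, an estimated count and an FPKM value, listed from 0.01 FPKM upward. Both were summed per NCBI gene (17866 of 17923 matched a symbol), and the estimated counts were rounded. The 39 genes and all lists (other replication, mitosis and E2F/DREAM genes, and follicular, epithelial, fibroblast, endothelial and immune markers) were chosen with earlier results of these data known. Genes were tested with edgeR 4.0.16 in R 4.3.3 (TMM, filterByExpr with the 39 genes kept, glmQLFit, Benjamini-Hochberg, threshold 0.05). Single libraries were compared by log2 ratios of CPM with a prior of 0.5 counts and a 2-fold threshold. Values in every library were printed for Ctnnb1, for Mki67, Top2a, Ccnb1, Cdk1, Plk1, Mcm2, Pcna, Rrm2, Ccne1, E2f1, E2f2 and Foxm1, for the 5 genes with the lowest edgeR p and the 3 with the widest null range, and from each other list the 2 highest and 2 lowest fold changes were named. Mcm4, Cdc6, Cdt1, Cdk2 and the values of other genes were added after they were seen. Alternatives were DESeq2 1.42.0, other scalings and count filters, limma 3.58.1 on log2(FPKM + 0.1), with 0.01 or 1 as other pseudocounts and a filter of 0.5 FPKM in 2 libraries, each library left out, a replicate block, and a loess correction for length and GC (span 0.3). Fits were also tested on simulated data, and no outcome of that is reported here. Estimated counts divide reads shared by similar transcripts, so low values of close paralogs are uncertain.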

Additional observations from a re-analysis of the deposited data

How the results depend on the processing

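The excess of these genes in the wt library with TSH kept its direction under each of its alternatives, with 26 (0.1 added to FPKM), 28 (FPKM with nothing added) and 28 (length and GC correction) of 39 genes at least 2-fold higher, 32 at least 1.5-fold higher (2329 of 13240 genes), 0 lower and medians of 1.35 to 1.61. Of all genes, 9.0% (0.1 added), 14.2% (nothing added) and 9.19% (length and GC correction) were at least 2-fold lower, and 2687 of 13240 were at least 1.5-fold lower. With 0.1 added to FPKM and 1.5-fold together, 1 of the 39 was lower, where the share of all genes is at least the 9.0% lower at 2-fold. The excess rests on 1 library per condition. Over all genes, calls at an adjusted p under 0.05 were 1113 higher and 487 lower with DESeq2 (2 of the 39 genes higher, 10 at an unadjusted p under 0.05, beside 2168 of 13240 genes). The limma fits with 0.1, 1 and 0.01 added called 1, 1 and 1 higher and 5, 7 and 3 lower, and edgeR called 4 lower with no filter and 1 lower with at least 10 counts in every library. Of the 39 genes, those at an unadjusted p under 0.05 numbered 14 with library size only, 13 with each limma fit and 14 with limma and no filter, where in each case 20 had groups that did not overlap. Over all genes these shares were also higher than with TMM, at 22.3% (library size), 19.1%, 16.6% and 19.6% (limma with 0.1, 1 and 0.01 added) and 13.4% (no filter) higher at that p, and at 36.3%, 35.9% and 28.8% not overlapping with library size, limma and limma with no filter. The median fold change of the 39 genes was then 1.26, 1.35 (0.1 added), 1.15 (1 added), 1.35 (0.01 added) and 1.35 (no filter). Over all genes the median was 0.87, 0.61, 0.50, 0.62 and 0.42 in the same order, beside 0.29 with TMM. Leaving out each library in turn gave 0 to 9 higher at an unadjusted p under 0.05, 9 to 34 wholly above, 0 to 10 wholly below and medians of 0.18 to 1.77. At that p, 0 of 39 genes were higher without wt replicate 1 (3.5% of all genes), 9 without wt replicate 2 (2.91%), and 9, 2 and 4 without null replicates 1, 2 and 3 (15.3%, 12.6% and 10.5%). Wholly above were 11 without wt replicate 1 (30.3% of all genes), 34 without wt replicate 2 (28.4%), and 18, 9 and 11 without null replicates 1, 2 and 3 (31.4%, 28.1% and 26.9%). Wholly below were 10 without wt replicate 1 (23.7%) and 0 without any other library (23.5% to 27.8%).

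For null replicates 1, 2 and 3 against the wt mean, FPKM with 0.1 added gave medians of 0.60, 1.65 and 1.18 (0.51, 0.58 and 0.68 over all genes), with 31 genes higher in null replicate 2 (38.6% of all genes), 23 higher in null replicate 3 (40.6%) and 0 lower in null replicates 1 and 3 (12.7% and 9.31%). With nothing added, medians were 0.63, 1.69 and 1.20 (0.57, 0.67 and 0.73 over all genes with values above 0). On that scale 31 genes were higher in null replicate 2 (41.4% of all genes) and 24 in null replicate 3 (43.4%). In null replicates 1 and 3, 0 were lower (14.3% and 10.4%). A 1.5-fold threshold gave 9 lower in null replicate 1 and 4 in null replicate 3 (4106 and 4019 of 13240 genes). With wt replicate 1 as the only reference, 17, 33 and 24 genes were higher (29.1%, 27.3% and 28.9% of all genes). In null replicate 1, 1 was lower and in null replicate 3, 0 (22.1% and 20.2%), and medians were 0.91, 2.06 and 1.46. With wt replicate 2 only, 5 were higher in null replicate 1 (29.7% of all genes). In null replicates 1 and 3, 11 and 6 were lower (21.4% and 21.1%), and medians were -0.39, 0.43 and 0.0079. The G2/M to G1/S ratio from geometric means was 0.552 and 0.894 in wt replicates 1 and 2 and 1.06, 0.837 and 0.830 in the null replicates. On CPM it was 0.801 in wt replicate 2 and 0.845, 0.836 and 0.934 in the null replicates, and after the length and GC correction 0.728 in wt replicate 2 and 0.830 and 0.851 in null replicates 2 and 3.

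Over all settings, 18 of the 39 genes changed sign at least once, 5 of them among the genes taken by the naming rule. Mcm2 went from -0.02 to 0.60 with library size only, to 0.61, 0.60, 0.61 and 0.61 with limma (0.1, 1, 0.01 added and no filter) and to 0.20 with the length and GC correction. Ccnb1 went from 0.01 to -0.082 with DESeq2, -0.047 with no filter and -0.15 with the length and GC correction. Leaving out each library in turn gave -0.41 to 0.51 for Mcm2, -0.60 to 1.09 for Ccnb1, -0.67 to 1.96 for Rrm2, -0.033 to 0.70 for E2f2 and -0.20 to 1.64 for Plk1. The causes were not tested.

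Same-numbered wt and null libraries correlated at -0.07 and -0.08 in their deviations from the group means. The deviations of the 2 wt libraries mirror each other and the null lines differ, so this cannot show whether the replicate numbers pair the libraries. With the replicate number as a block, edgeR called 0 of the 39 genes. Their median was 0.83 (0.10 over all genes), and 7 were higher at an unadjusted p under 0.05 (947 of 13240 genes). Null replicate 3 has no wt library of the same number, so it does not enter these fold changes. The length and GC correction, FPKM with nothing added and the comparisons with a single wt library were added after seeing the data. The biological coefficient of variation was 0.69.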

Other observations

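For 8 of the 39 genes more than 1 RefSeq transcript was listed, and the share of the gene's FPKM taken by each differed between libraries. The Cdk2 transcript NM_016756 took 6.59% and 32.3% in wt replicates 1 and 2, and 32.1%, 75.1% and 20.4% in null replicates 1, 2 and 3, so most of the additional Cdk2 RNA in null replicate 2 was assigned to it. The Bub1 transcript NM_001113179 took 2.86% in wt replicate 1, was not listed in wt replicate 2, and took 2.02% in null replicate 1, and 32.5% and 47.3% in null replicates 2 and 3. For Ccne2, NM_009830 was not listed in either wt library and took 50%, 38.9% and 39.8% in the null libraries, at 11 counts for the gene in null replicate 1. These splits come from the counter's assignment of shared reads, have no test here, and were picked after their values were seen.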
